A study of Oryza sativa with 2 samples.

Results

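The genes of the DNA replication machinery described here are 8 rice genes, ORC4, MCM4, RPA70A, RPA32B, RPA14, RFC3, PCNA and POLD2. Each was chosen by name, with earlier results of these data known, and read on 1 given probe set of the Affymetrix rice GeneChip. They are 8 of the 17905 rice genes that could be tied to a probe set of their own. The LRK1 array held leaf RNA of 6-week-old transgenic plants in the 9311 background, titled LRK1 060615, and the control array held leaf RNA of 9311, an indica variety, at the same age. Both genotypes grew untreated in a greenhouse at 28 °C with 14 h of light and 10 h of dark, and leaves of 10 plants of each were taken. LRK1 encodes a leucine-rich repeat receptor-like kinase. The sources used here do not give the promoter that drives the transgene or the number of independent lines behind the titled one. There was 1 array per genotype, so no difference has a replicate check, no test was possible, the number of arrays limits the precision, and every statement compares these arrays.

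Replication starts when the origin recognition complex marks an origin and the MCM helicase is loaded onto it. Replication protein A then coats the unwound single strands, replication factor C opens the ring-shaped clamp PCNA and sets it on the DNA, and polymerase delta synthesises DNA while tethered to that clamp. In grass leaves cells divide near the base, and the expanded blade is made mostly of cells that have left the cycle, so transcripts of these genes are generally more abundant in meristems and young leaf bases than in mature blades.

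Signals are log2 MAS5 signals, MAS5 being Affymetrix's summary of the probes of a probe set. A floor of 5.40, or 42.1 in linear signal, was taken as the median over both arrays of the 57258 probe sets that are not array controls. Each log2 ratio is LRK1 transgenic over control. A gene was called higher or lower under a 2-fold rule, which asks that both signals reach the floor and lie at least 2-fold apart, or that 1 signal lies at least 2-fold above the floor and the other below it. Signals of different probe sets are not comparable as transcript levels, because each set hybridises with its own efficiency.

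PCNA was the 1 gene of the 8 that passed the 2-fold rule, and its signal was 2.97-fold lower on the LRK1 array. The other 7 genes were under the rule, and none was higher. Among the 15150 genes that reached the floor on at least 1 array, 11.4% were lower under the same rule and 7.17% were higher. A count of 1 in 8 lower is close to that background share. The median log2 ratio of the 8 genes was -0.16 with signals below the floor set to it, beside 0.03 over the 15150 genes. Both arrays put 7 of the genes at or above the floor. Of these, 5 had ratios between the 25th and 75th percentiles of all 13526 such genes, -0.48 and 0.45, and 4 lay within 0.2 of 0, as did 22.5% of those genes.

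**Figure D1:**
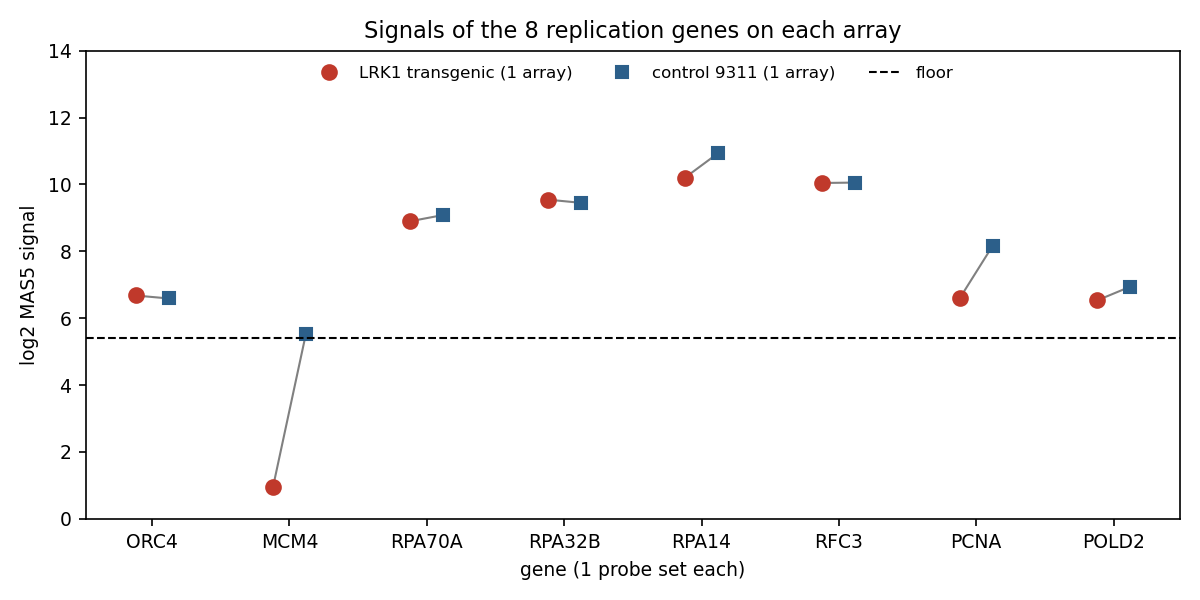
Log2 MAS5 signals of the 8 replication genes on the LRK1 transgenic array (circles) and the control array (squares), 1 array each, with the floor of 5.40 as a dashed line. The signal of PCNA was 6.60 on the LRK1 array and 8.17 on the control array, and MCM4 reached the floor on the control array only.

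The arrays differ in ways that touch small ratios. The median log2 signal over the probe sets other than controls was 5.56 on the LRK1 array and 5.21 on the control array, and 52.5% and 47.5% of probe sets reached the floor on the LRK1 and control arrays. The 63 probe sets for bacterial spike controls had a median log2 ratio of 0.34, and 57 of them were brighter on the LRK1 array. The ratio of 3′ to 5′ signal, which falls with more intact RNA or more complete labelling, ran from 6.95 to 16.2 on the LRK1 array and from 9.45 to 16.4 on the control array over 3 pairs of actin probe sets. For the bright GAPDH pair it was 2.16 on the LRK1 array and 3.87 on the control array. A second GAPDH pair gave 1.997 on the LRK1 array and 15.97 on the control array, with 5′ log2 signals below the floor, 4.90 on the LRK1 array and 1.32 on the control array. For elongation factor 1 alpha it ran the other way, 0.479 on the LRK1 array and 0.131 on the control array. Across the 1951 genes measured by more than 1 probe set, the brightest and next brightest differed in ratio with an SD of 0.676, so a ratio as small as 0.2 is within what a change of probe set gives.

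The leaf label was checked against marker genes. Of 5 mesophyll genes on the array, the 4 that reached the floor, a Rubisco small subunit, Rubisco activase and light-harvesting proteins, had log2 signals of 15.6 to 16.2 on the LRK1 array and 15.2 to 15.8 on the control array. The 5 genes listed as shoot meristem markers were taken by gene symbol, and whether each is confined to the meristem was not tested. Of these, the homeobox genes OSH1, OSH71 and OSH6 were below the floor on both arrays, and OSH1 was listed at 0 on the control array. SHO1 had log2 signals of 9.59 on the LRK1 array and 9.36 on the control array, and FON1 had 9.23 on the LRK1 array and 8.64 on the control array. Of the 5 listed meristem genes only SHO1 and FON1 reached the floor. The summed linear signal of the 5 was 1411 on the LRK1 array and 1079 on the control array. That of the mesophyll markers was 265617 and 186761 on the LRK1 and control arrays. Of 6 root markers 5 reached the floor on at least 1 array and 2 on both, and none passed the rule. The summed signal of the 6 was 1785 on the LRK1 array and 1630 on the control array. The silicon channel gene NIP2-1 had log2 signals of 10.50 on the LRK1 array and 10.40 on the control array. SCR1 had 7.83 on the LRK1 array and 7.68 on the control array. Of 10 panicle and flower markers 5 were below the floor on both arrays, and their summed signal was 1448 on the LRK1 array and 1124 on the control array. In that list MADS16 had 10.07 on the LRK1 array and 9.49 on the control array, and MADS2, with 6.36 on the LRK1 array and 7.63 on the control array, was 2.40-fold lower under the rule. The part of cell makeup and RNA quality in the ratios was not tested, and in whole leaves fewer dividing cells and less transcript per dividing cell cannot be told apart.

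The licensing step is represented by ORC4 and MCM4. ORC4 (LOC4324139), a subunit of the origin recognition complex, had log2 signals of 6.68 on the LRK1 array and 6.59 on the control array. The ratio of 0.09 is a 1.06-fold difference, and its sign turned to -0.01 with quantile normalization, -0.06 with loess and -0.25 when the arrays were centred on the spike controls. The probe set used ends in _s_at, a class that can bind several transcripts. A second probe set of ORC4 had 6.34 on the LRK1 array and 5.57 on the control array, a ratio of 0.77 or 1.71-fold. Both probe sets of ORC4 were therefore brighter on the LRK1 array as deposited and both were under the rule.

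The array held 4 more subunits of the origin recognition complex. ORC2, the brightest of the pre-replication genes outside the 8, had a log2 signal of 8.71 on the LRK1 array and 9.06 on the control array, a ratio of -0.35. ORC1, ORC3 and ORC5 were below the floor on both arrays.

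MCM4 (LOC107275673), a subunit of the MCM2-7 replicative helicase, was faint on both arrays. Its log2 signal was 0.95 on the LRK1 array and 5.54 on the control array, in linear terms 1.93 and 46.5 on the LRK1 and control arrays. Relative to the floor, the LRK1 signal lay at -4.45 and the control signal at 0.14, so the rule allows only that MCM4 was at least 1.10-fold lower on the LRK1 array. Among 1387 probe sets whose control signal was within 0.1 of that of MCM4, 47.3% were below the floor on the LRK1 array and their median there was 5.49. An LRK1 signal as low as that of MCM4 was rarer, at 0.721% of them, or 10 probe sets. MCM4 passed as lower when the floor was moved down to the 25th percentile. It also passed without a floor when 16 was added to the linear signal, where its ratio was -1.80.

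No MCM2-7 subunit reached the floor on both arrays, and none passed the rule. MCM5, MCM6 and MCM7 were below the floor on both. MCM2 had 5.65 on the LRK1 array and 5.21 on the control array, and MCM3 had 5.53 on the LRK1 array and 0.43 on the control array. MCM3 and MCM4, which are subunits of one ring, showed opposite patterns at the edge of the measurable range, each just above the floor on one array and far below it on the other. Under the lowered floor and the added 16 that call MCM4 lower, MCM3 was called higher. Among 1763 probe sets as bright as MCM3 on the LRK1 array, 71.4% lay under the floor on the control array, and 2.10% were as low there as MCM3.

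Replication protein A is a trimer of a large, a middle and a small subunit. Rice has several large and middle subunits, and biochemical work on rice proteins grouped them into complexes of types A, B and C that share the small subunit RPA14, with the type that contains RPA70A assigned to chloroplasts and the others to nuclei. RPA70A (LOC4330902), a large subunit, had log2 signals of 8.90 on the LRK1 array and 9.09 on the control array, linear signals of 478 and 544 on the LRK1 and control arrays. Its ratio was -0.19, or 1.14-fold, and ran from -0.52 to -0.10 over the 8 settings tried for it. The rescalings could have turned its sign. They gave -0.10 with quantile normalization, -0.18 with loess, -0.27 on the median centring and -0.52 on the spike centring. Adding a constant to the linear signals, or taking the median of its 1 probe set, could not. RPA32B (LOC4330068), a middle subunit, had log2 signals of 9.55 on the LRK1 array and 9.45 on the control array, a ratio of 0.10 or 1.07-fold, which turned to -0.24 on the spike centring. Both subunits were far above the floor on both arrays, and their ratios were smaller than the SD between probe sets of one gene.

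RPA14 (LOC4327706) had the largest difference of the 3 subunits chosen and was under the rule. Its log2 signal was 10.21 on the LRK1 array and 10.93 on the control array, linear signals of 1181 and 1957 on the LRK1 and control arrays. The ratio of -0.73, or 1.66-fold, was matched or exceeded on the lower side by 17.0% of genes measured on both arrays, and it ran from -1.07 to -0.70 over the settings tried. With the arrays centred on the spike controls RPA14 passed as lower together with PCNA, 2 of 8 genes, while 19.1% of all genes were lower on that centring.

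Of the large subunits outside the 8, RPA70B was below the floor on both arrays and RPA70C had log2 signals of 8.24 on the LRK1 array and 8.55 on the control array, a ratio of -0.31. Of the middle subunits, RPA32A was below the floor on both arrays, and RPA32C had 6.21 on the LRK1 array and 5.12 on the control array, which bounds it as at least 1.75-fold higher, under the rule. None of the 7 subunits of replication protein A on the array passed the rule.

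RFC3 (LOC4330895), a small subunit of the clamp loader, gave the smallest difference of the 8 genes. Its log2 signal was 10.05 on the LRK1 array and 10.06 on the control array, linear signals of 1057 and 1065 on the LRK1 and control arrays. The ratio of -0.01, or 1.01-fold, was 0.04 after quantile normalization and -0.35 on the spike centring. The other 4 subunits of replication factor C did not share this value. RFC1, the large subunit, had a ratio of 0.13, RFC2 had 0.77 with log2 signals of 10.69 on the LRK1 array and 9.92 on the control array, and RFC5 had -0.17. RFC4 had log2 signals of 6.79 on the LRK1 array and 7.79 on the control array, a ratio of -0.999 that was just short of 2-fold as deposited and passed as lower with loess, median centring and spike centring. Subunits of one complex thus spread over a range of -0.999 to 0.77 on these arrays, and none passed the rule.

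PCNA (LOC4331062), the sliding clamp that holds polymerase delta on the template and serves as a common marker of dividing cells, had a log2 signal of 6.60 on the LRK1 array and 8.17 on the control array. In linear terms the signals were 96.7 on the LRK1 array and 287.5 on the control array. The ratio was -1.57, and 586 of the 13526 genes measured on both arrays, or 4.33%, had a ratio as low or lower. Both signals were above the floor. Among 3504 probe sets with a mean signal within 0.5 of that of PCNA, ratios ran from -1.70 at the 5th percentile to 1.39 at the 95th. The value of PCNA lay inside that range, with 94.1% of these probe sets at or above it. Over the 13526 genes the 5th percentile was -1.47, and PCNA lay below it.

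PCNA was lower by the 2-fold rule under each of the 5 scalings of the arrays, with -1.59 after quantile normalization, -1.61 after loess, -1.65 on the median centring and -1.91 on the spike centring. The call was lost with a 3-fold rule, since the difference was 2.97-fold, and when the floor was raised to the 75th percentile of all signals, which lies above both of its signals. PCNA had 1 probe set, so no second measurement of its transcript was at hand.

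**Figure D2:**
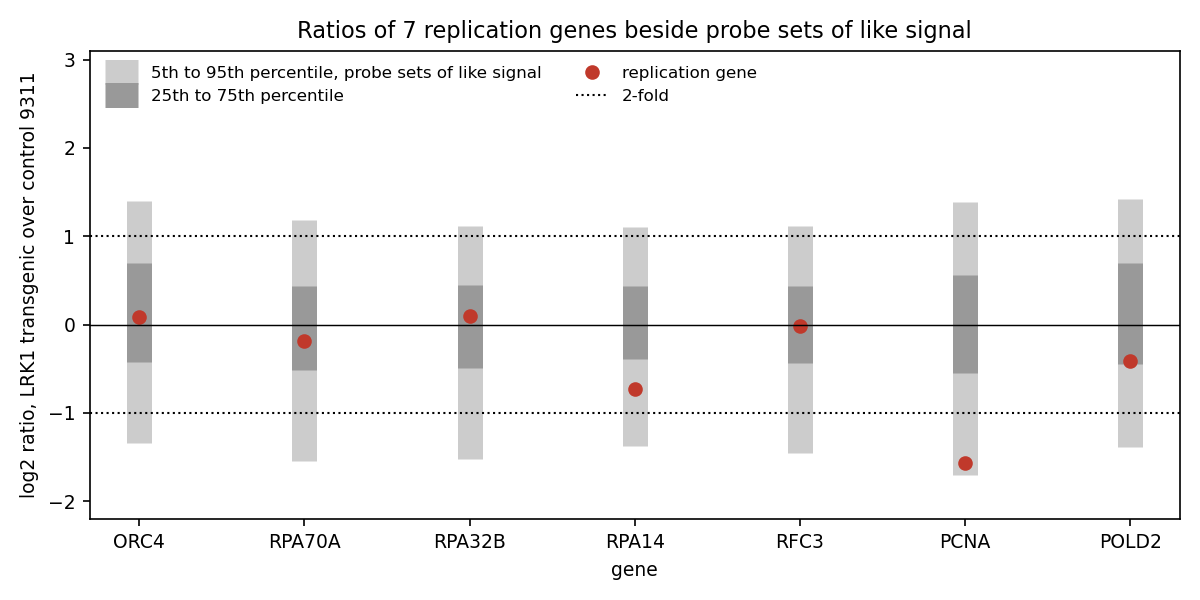
Log2 ratios, LRK1 transgenic over control, of the 7 replication genes measured on both arrays (points), beside the 5th to 95th and 25th to 75th percentiles of ratios of probe sets with like mean signal (light and dark bars). PCNA at -1.57 is the 1 point past the dotted 2-fold line and sits inside its light bar, which starts at -1.70, while RPA14 at -0.73 sits below its dark bar.

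POLD2 (LOC4331489), the accessory subunit of polymerase delta that joins the catalytic subunit to the rest of the enzyme, had log2 signals of 6.53 on the LRK1 array and 6.94 on the control array. The linear signals were 92.6 on the LRK1 array and 123 on the control array. The ratio was -0.41, or 1.33-fold, under the rule, and it ran from -0.75 to -0.26 over the 8 settings tried. The rescalings could have turned its sign, and gave -0.50 with quantile normalization, -0.54 with loess, -0.49 on the median centring and -0.75 on the spike centring. An added constant or the median of its 1 probe set could not. The catalytic subunit POLD1 had log2 signals of 8.79 on the LRK1 array and 8.09 on the control array, a ratio of 0.71 in the other direction and also under the rule. The probe set of POLD1 ends in _s_at.

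**Figure D3:**
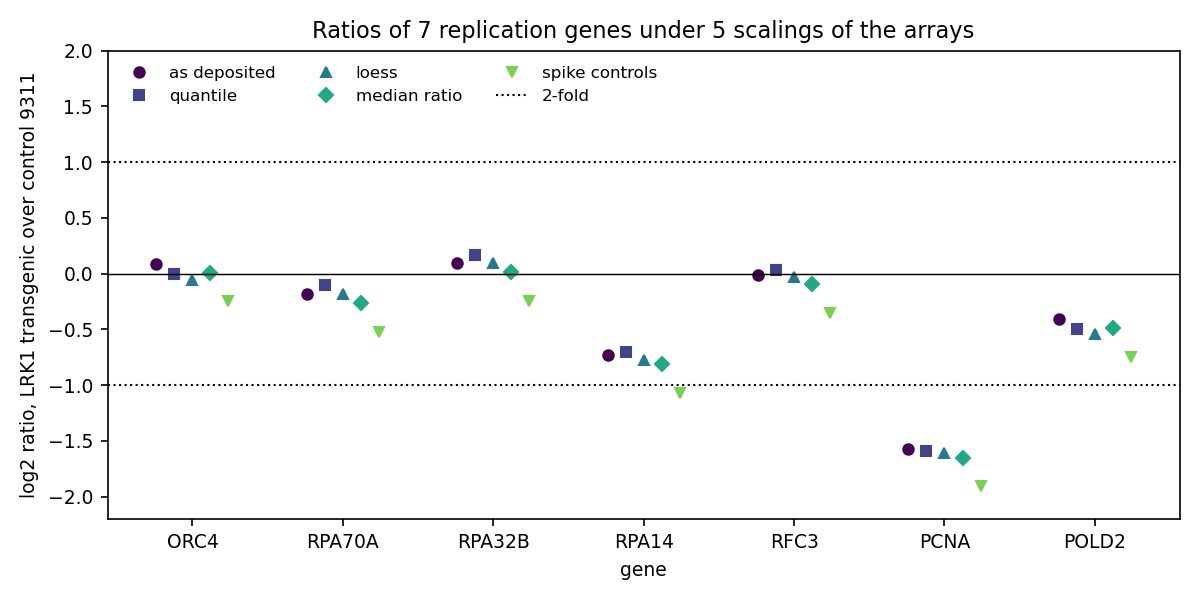
Log2 ratios, LRK1 transgenic over control, of 7 replication genes under 5 scalings of the arrays, one symbol per scaling, with the 2-fold limits dotted. PCNA stays between -1.91 and -1.57 under all 5, RPA14 passes the lower limit on the spike centring at -1.07, and ORC4, RPA32B and RFC3 lie on either side of 0 depending on the scaling.

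The 8 genes stand in a wider set of 52 other genes of replication and cell division on the array, grouped by role. Counted in this set are 7 genes of repair and recombination and 2 of organelle replication. Of the 52, 15 were below the floor on both arrays. Of the 37 others 0 were higher and 2 were lower under the rule, TK and FAS2. Their median log2 ratio was -0.01, with 18 positive and 19 negative. The share of 2 in 37 is below the 11.4% lower among all genes. In the complexes of the 8 genes, 18 further subunits were on the array, 8 of them below the floor on both arrays, and none of the other 10 passed the rule, with a median of 0.13.

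TK (LOC4331376), thymidine kinase, which salvages thymidine for DNA synthesis, was the 1 gene of nucleotide supply found on the array. Its log2 signal was 9.45 on the LRK1 array and 11.06 on the control array, a ratio of -1.61 or 3.06-fold lower. FAS2 (LOC4344464), a subunit of chromatin assembly factor 1, which places histones on new DNA at forks marked by PCNA, had log2 signals of 6.81 on the LRK1 array and 8.35 on the control array, a ratio of -1.55 or 2.92-fold lower. TK and FAS2 were close to PCNA in the size of the difference, and 4.06% and 4.47% of genes had ratios as low as those of TK and FAS2. Both were lower under each of the 5 scalings.

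**Figure D4:**
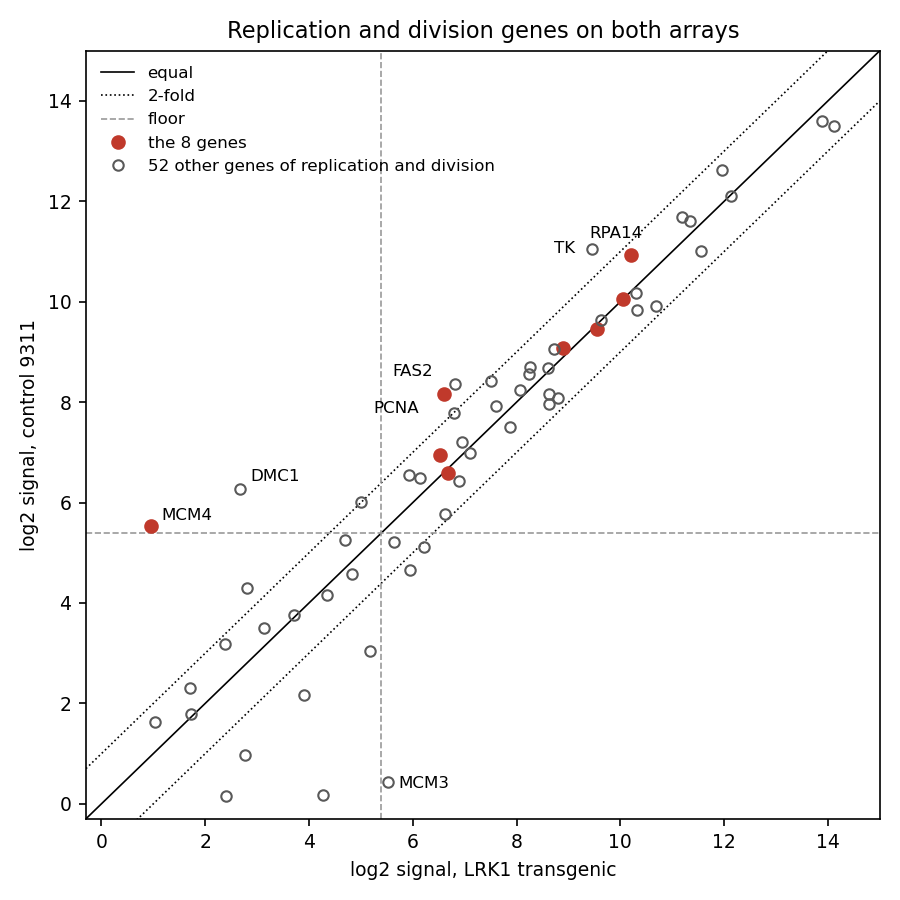
Log2 signals of the 8 replication genes (filled) and 52 other genes of replication and division (open) on the LRK1 transgenic array (horizontal) and the control array (vertical), with lines for equal signal, 2-fold difference and the floor of 5.40. PCNA, TK and FAS2 are the genes above the upper 2-fold line with both signals past the floor, and MCM4, MCM3 and DMC1 lie far from the diagonal with 1 signal below the floor.

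FAS2 was the 1 gene called among the 8 of chromatin assembly and histones, which had a median of -0.40. The 5 H2B histone genes on the array had ratios on both sides of 0 and none passed, from -0.67 for H2B.6, with 11.96 on the LRK1 array and 12.63 on the control array, to 0.29 for H2B.5, with 13.89 on the LRK1 array and 13.60 on the control array. H2B.6 passed as lower on the spike centring. MSI1, another subunit of chromatin assembly factor 1, had log2 signals of 11.34 on the LRK1 array and 11.61 on the control array, a ratio of -0.27. Among the 4 genes of Okazaki fragment processing and topology none passed, and the flap endonuclease FEN1A, with 7.50 on the LRK1 array and 8.42 on the control array, had a ratio of -0.92 that passed as lower on the median and spike centrings. A second probe set of FEN1A went the other way, with 5.28 on the LRK1 array and 2.77 on the control array, both below the floor. SPO11-3, a subunit of plant topoisomerase VI and the brightest of that group, had 14.11 on the LRK1 array and 13.51 on the control array, a ratio of 0.61.

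Of 10 genes of S and M phase control, 6 were below the floor on both arrays and none passed the rule. The 6 below the floor were RBR1, CYCA3-2, CYCB1-1, CYCB1-3, CYCB2-2 and CDKB2-1. CYCB2-1 was bounded as at least 1.47-fold higher and CYCA2-1 as at least 1.54-fold lower, both under the rule. CYCA1-4 was above the floor on both arrays, with a ratio of 0.46. With the floor at the 25th percentile, CYCA3-2, CYCB1-1 and CYCB2-1 passed as higher and CYCA2-1 as lower. CYCA3-2 and CYCB1-1 also passed as higher with 16 added to the linear signal. The brightest of the 10 was RBR2, a retinoblastoma-related repressor of S phase genes. It had 10.33 on the LRK1 array and 9.83 on the control array, a ratio of 0.50.

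None of the 8 genes overlaps another gene in the gene table used. Of their 16 flanking genes 8 were on the array, 2 of them below the floor on both arrays, and none passed the rule. With 11.4% lower and 7.17% higher among all genes that reached the floor, so few genes would often hold none. The gene next to PCNA that was on the array was below the floor on both arrays, and both neighbours of POLD2 were on the array, with ratios of 0.02 and -0.36. RFC3 and RPA70A lie on the same chromosome with 9 genes between them, and their ratios were -0.01 and -0.19.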

How the data were processed

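The authors deposited a log2 signal for each probe set on each array, computed with MAS5 (per the submitters' processing notes). Neither labels nor file headers state the MAS5 version or scaling target, and detection calls were not used. Of 57381 probe sets, 123 array controls were left out of the comparison. The platform annotation gave 22436 probe sets 1 gene, 95 several genes and 34727 none, and names came from RefSeq's genes of the Japonica assembly ASM3414082v1, used for names and gene order only. Each of the 8 genes was read on its given probe set, and any other gene on the probe set with the highest mean log2 signal. Groups came from the genotype labels.

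The comparison was a difference of log2 signals with the 2-fold rule and floor, computed with Python 3.11.15, numpy 2.4.6, pandas 2.3.3 and, for loess with span 0.3, statsmodels 0.14.6. The rule was tested on simulated data, with changes well past 2-fold in bright probe sets and noise smaller than the SD between probe sets. That test checks the code and gives no error rate for these arrays. For medians, lower signals were raised to the floor. Alternatives were 4 scalings, 2 floors, 2 fold limits, 2 pseudocounts and 2 choices of probe set. The 8 genes and the lists were chosen with earlier results of these data known. From each list the text names the called genes or, with none called, the brightest, and it adds the complex partners of the 8 genes and a few further genes chosen after their values were seen. Promoter motifs were not analysed here, the transgene's own signal was not checked, since none of the names used contains LRK1.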

Additional observations from a re-analysis of the deposited data

How the results depend on the processing

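Of 104 values recomputed under 12 alternatives, 90 stayed within the limits set (1.5 times for counts, the SD of 0.676 between probe sets for ratios and medians) and 14 moved further. Part of the 90 could not move. A fold limit leaves medians as they are, and a gene with 1 probe set keeps its ratio under the probe set median. The limit of 0.676 is wider than the reported median of -0.16, so a median within it can still change sign. PCNA, the 1 gene of the 8 with a called ratio, kept its sign. Among ratios under the rule the sign turned for ORC4 under 3 alternatives, for RPA32B under 1 and for RFC3 under 1. For the 8 genes the count past the rule, 1 as reported, was 2 on the spike centring (RPA14 and PCNA), 2 with a floor lowered to the 25th percentile (MCM4 and PCNA), 2 with a 1.5-fold rule (RPA14 and PCNA), 2 on log2(signal + 16) (MCM4 and PCNA), 0 with a floor raised to the 75th percentile, and 0 with a 3-fold rule, all of them lower. It was 1 under the other 6. For the 52 other genes the count, 2 as reported, was 4 on the median centring and 6 on the spike centring, all lower. It was 10 with the lower floor, 5 of them higher, 14 with a 1.5-fold rule, 6 of them higher, and 6 on log2(signal + 16), 3 of them higher. It was 1 with the higher floor and 1 with a 3-fold rule, TK in both. Over all genes, 11.4% were lower as reported and 19.1% on the spike centring. That share was not computed for the other alternatives, so the counts under them cannot be read as high or low. The ratio of MCM4 moved to -1.80 on log2(signal + 16). The median over the 8 genes ran from -0.44 on the spike centring to -0.16. With the higher floor it was -0.10, over the 4 genes left. The cause of these moves was not tested beyond what each setting does by its own construction. No paired analysis was possible because there was 1 array per genotype, and no replicate could be left out. Signal near background limits MCM4, whose LRK1 signal has no usable size.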

Other observations

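The 52 other genes counted above include the gyrase subunits and genes of repair and recombination that work with replication protein A or PCNA. None of the 7 repair and recombination genes on the array passed the rule. Their median log2 ratio was 0.12. PARP1, a poly(ADP-ribose) polymerase that senses DNA breaks and the brightest of them, had a ratio of 0.38. MSH5, a meiotic MutS homologue, had 0.84, and DMC1, the meiotic recombinase, had log2 signals of 2.67 on the LRK1 array and 6.27 on the control array, bounded as at least 1.83-fold lower and under the rule. DMC1 passed as lower on the spike centring, with the floor at the 25th percentile of signals, and with 16 or 64 added to the linear signal. The gyrase subunits, listed under organelle replication, had ratios of -0.31 for GYRA and 0.52 for GYRB, with log2 signals for GYRB of 11.55 on the LRK1 array and 11.02 on the control array.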
